A study of Homo sapiens with 18 samples.

Results

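The genes described here are 10 genes of the phosphorylation circuit that controls splicing: the kinases CLK1, CLK2, CLK3, CLK4, SRPK1 and SRPK2, and the splicing factors SRSF2, SRSF3, SRSF5 and SRSF6. Of these 10 genes, 9 are among the 19775 genes that have a probe set tied to 1 gene alone. The 10 were chosen by name, with earlier results of these data known. Their values were taken from every probe set that the platform annotation ties to that gene and no other, and the brightest of a gene on average over the 18 arrays is its main probe set. That mean is the only measured value the choice of probe sets used. In all 27 probe sets of 9 genes met the rule, and 24 probe sets of those 9 genes passed the level filter and were tested. SRSF2 has 3 probe sets, each annotated also to the microRNA gene MIR636, so no value is given for it.

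CLK kinases (CDC-like kinases) sit mainly in the nucleus and phosphorylate the arginine-serine tails of SR proteins, while SRPK kinases act mainly in the cytoplasm, where they prime the same tails so that SR proteins can enter the nucleus. SR proteins bind exons and recruit the splicing machinery, and their phosphorylation state sets where they are and what they bind. Several of these genes, CLK1 and SR protein genes among them, control their own mRNA through exons or introns whose inclusion sends the transcript to decay or holds it in the nucleus. A probe set reads a short stretch of the transcript, so its intensity does not by itself separate splice forms.

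The cells were U251, an established human glioblastoma line, grown in RPMI with 5% serum. They received DMSO, the solvent, or enzastaurin, a kinase inhibitor designed to block protein kinase C beta, at a dose the labels leave out, for 4, 10 or 18 h. Each of the 6 groups, DMSO and enzastaurin at each time, holds 3 arrays. The number of arrays limits the precision, and nothing in the labels tells separate cultures from repeat arrays. The p-values therefore rest on the spread among these samples alone, and that spread may be technical. Array medians lay between 99.2 and 125.9 and no array stood apart: the correlation between arrays of a group, over all probe sets on the log2 scale, lay between 0.951 and 0.969. Of 9 glial and glioma markers 6 were above the level filter, with VIM, CD44 and NES at 32373, 19162 and 4274, while GFAP, S100B and CHI3L1 were below it at 22.3, 11.3 and 28.4. Of 10 measured markers of other cell types 3 were above the filter, PECAM1 at 321, MBP at 137 and CD3E at 115. Per array that list summed to 560.4 to 1232, and the glial and glioma list to 53024 to 80616, sums over different probe sets that are not comparable as levels. With bulk samples, fewer cells holding a transcript and less of it per cell cannot be told apart.

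CLK2 and CLK3 are the members called higher at 4 h, where 0.558% of all genes tested were. On main probe sets all treated arrays of the 4 CLK genes and of SRPK2 lay above controls then, against 9.17% of all genes. For this reason the sequences before the CLK start sites are shown. They are the 250 bases upstream of a start listed in RefSeq, build GRCh38.p14, read 5′ to 3′ on the gene's strand. CLK1 has 2 listed starts with overlapping windows, and the one before the upstream start is printed. Capitals mark the core of the cAMP response element, TGACG on either strand, and the E-box with the letters CACGTG.
CLK1, chr2:200864659-200864908, minus strand: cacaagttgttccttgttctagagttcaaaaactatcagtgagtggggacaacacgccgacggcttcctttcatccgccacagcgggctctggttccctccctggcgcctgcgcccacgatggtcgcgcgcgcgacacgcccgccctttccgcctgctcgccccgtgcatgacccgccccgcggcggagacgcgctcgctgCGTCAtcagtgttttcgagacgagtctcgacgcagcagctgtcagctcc
CLK2, chr1:155273505-155273754, minus strand: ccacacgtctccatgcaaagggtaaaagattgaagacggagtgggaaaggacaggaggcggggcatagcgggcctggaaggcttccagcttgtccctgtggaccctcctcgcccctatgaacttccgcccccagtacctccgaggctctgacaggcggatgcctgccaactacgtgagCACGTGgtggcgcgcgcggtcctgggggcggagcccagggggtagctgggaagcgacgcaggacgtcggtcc
CLK3 first listed start, chr15:74608122-74608371, plus strand: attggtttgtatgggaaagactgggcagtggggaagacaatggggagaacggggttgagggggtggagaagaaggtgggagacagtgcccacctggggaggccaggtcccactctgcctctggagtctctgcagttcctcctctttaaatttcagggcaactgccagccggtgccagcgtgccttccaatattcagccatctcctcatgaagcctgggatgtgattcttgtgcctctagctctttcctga
CLK3 second listed start, chr15:74615586-74615835, plus strand: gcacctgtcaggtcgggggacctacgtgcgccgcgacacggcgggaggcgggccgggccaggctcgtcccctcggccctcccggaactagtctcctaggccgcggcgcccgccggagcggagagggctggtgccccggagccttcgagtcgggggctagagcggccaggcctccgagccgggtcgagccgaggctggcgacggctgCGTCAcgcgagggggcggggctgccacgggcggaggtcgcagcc
CLK4, chr5:178627051-178627300, minus strand: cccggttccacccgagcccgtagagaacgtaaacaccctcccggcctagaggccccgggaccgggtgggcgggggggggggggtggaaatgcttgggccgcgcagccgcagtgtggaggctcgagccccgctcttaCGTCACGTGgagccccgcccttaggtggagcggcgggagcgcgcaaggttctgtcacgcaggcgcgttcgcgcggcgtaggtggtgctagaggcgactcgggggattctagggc
The upstream sequences of CLK1, CLK4 and the second listed start of CLK3 hold 1 TGACG match each, 49, 114 and 44 bases before the start (146 before the other listed start of CLK1), and those of CLK2 and CLK4 hold 1 CACGTG each, 72 and 111 bases before it. In CLK4 both matches overlap. The first listed start of CLK3 has neither. Among the other members TGACG also lies before SRSF3 (93 bases), SRSF5 (50) and 1 listed start of SRPK2 (200). SRPK1 and SRSF6 have no TGACG match. Of the 14 member entries 7 hold TGACG and 2 hold CACGTG. The 2 CLK1 entries overlap and hold the same TGACG site, and SRPK2 alone has 4 entries, so entries are not separate genes. Over all 35116 promoter entries, searched in the same 250 bases on both strands, 21.2% hold TGACG and 6.3% hold CACGTG. The search also covered the CCAAT box (32.0% of entries), the TATA box as TATAAA (10.7%), an ETS core as CCGGAA (14.5%) and a GC box as GGGCGG (42.6%). The GC box was found in CLK1, CLK2, CLK4 and the second CLK3 entry, in 2 copies each, the CCAAT box in 2 copies in the first CLK3 entry, and the ETS core once in the second. The TATA box was in none of the sequences printed. A match is a description of the letters, not a measured site. Entries were found for 9 of the 10 genes.

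After 4 h of enzastaurin, CLK2 and CLK3 rose. On their main probe sets CLK1 and CLK4 had all treated arrays above all controls, at log2 changes of 0.52 and 0.43 that did not pass the test. In DMSO CLK2 stood at 888, 930 and 991, and in enzastaurin at 1678, 1544 and 1746. Every treated array lay far above every control array. The group means were 936 ± 51.8 and 1656 ± 103 (SD, n = 3 each). The log2 change was 0.81 (SE 0.12, adjusted p = 0.00044), or 1.75-fold. CLK2 is read by 1 probe set, and the call held in all 17 alternative fits, with adjusted p between 0.00025 and 0.0040. Changes here are differences of group means of log2(intensity + 16), tested with limma and adjusted over all 12376 genes.

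CLK3 gave 1017, 803 and 916 in DMSO at 4 h against 1462, 1265 and 1389 in enzastaurin. The groups were again apart, and the log2 change was 0.59 (SE 0.12, adjusted p = 0.0087), or 1.5-fold. The call was lost without DMSO replicate 2 (adjusted p = 0.063), without enzastaurin replicate 1 (0.059) and when the 2 probe sets of the gene were averaged (0.393), over alternatives that ran from 0.0066 to 0.393. The other CLK3 probe set is dim, at 107 ± 46.6 without the drug and 122.5 ± 5.58 with it (SD, n = 3 each), and its log2 change of 0.26 was not called.

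CLK1 is the member with the widest scatter between arrays of a group, a residual SD of 0.21 on the log2 scale. At 4 h it read 622, 793 and 753 in DMSO and 1338, 843 and 983 in enzastaurin. No treated array fell among the controls, but enzastaurin replicate 1 lay well above the other two. The log2 change was 0.52 (95% confidence interval 0.20 to 0.84, adjusted p = 0.107), and only leaving out enzastaurin replicate 2 brought it under the threshold (0.0446), in alternatives that ran up to 0.445.

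CLK4, the closest relative of CLK1, is covered by 4 probe sets that did not give 1 answer at 4 h. Its main probe set read 569.6, 625 and 622 in DMSO and 694, 782 and 1015 in enzastaurin, a log2 change of 0.43 (adjusted p = 0.084) with no overlap. The probe set 228751_at read 93.8, 163.1 and 126 in DMSO and 236, 245 and 284 in enzastaurin, and was called when each probe set was tested on its own (log2 0.94, SE 0.21, adjusted p = 0.030 over 22781 probe sets). The probe set 241403_at went the other way, from 132 ± 16.9 to 73.8 ± 49.7 (SD, n = 3 each). Its treated arrays, at 100, 104.9 and 16.4, all lay below the controls, at 139.6, 144.4 and 113.1. The array at 16.4 lowered the mean most, and the log2 change of -0.94 was not called (adjusted p = 0.352 among probe sets). The fourth, 1568836_at, lay below the filter, with group means between 42.5 and 71.4 over the 6 groups. Averaging all 4 probe sets, also the one below the filter, left a CLK4 change of 0.07 at 4 h. Leaving out enzastaurin replicate 1 of 4 h brought the main probe set to adjusted p = 0.036. Leaving out replicate 3 took it to a log2 change of 0.28 (adjusted p = 0.362).

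**Figure D1:**
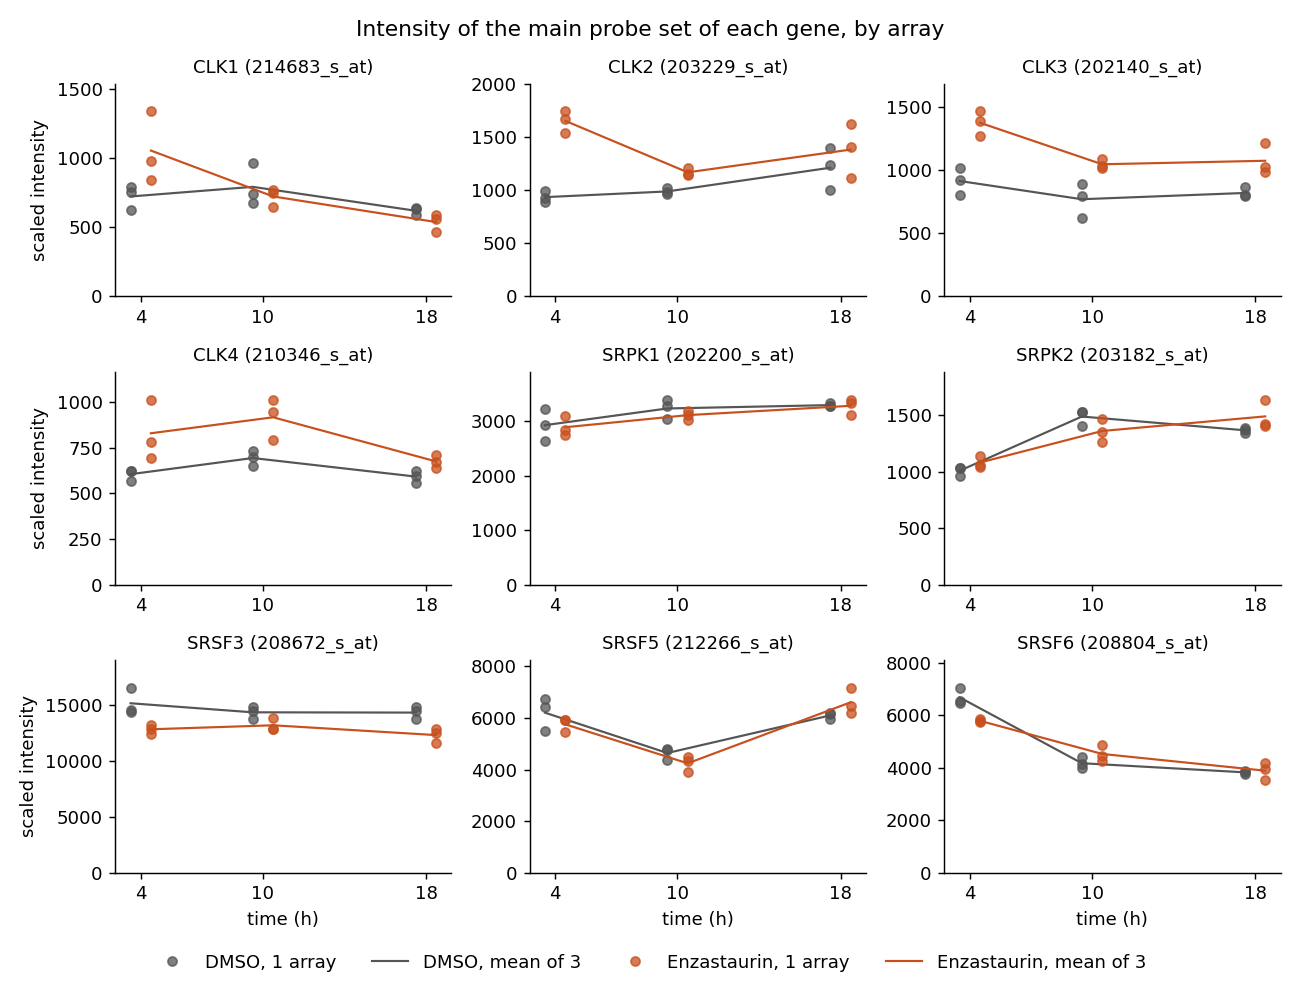
Scaled intensity of the main probe set of each measured gene against time in h, with 1 point per array, DMSO in grey and enzastaurin in orange, and lines through the means of 3 arrays; axes start at 0. At 4 h every enzastaurin array of CLK2 (1544 to 1746) lies above every DMSO array (888 to 991), while SRSF6 arrays at 10 and 18 h lie below those at 4 h in both treatments.

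Over the 9 measured genes, 2 rose and none fell at 4 h, where 0.558% of all genes tested were called higher and 1.25% lower. On main probe sets the treated arrays lay wholly above the controls for 5 genes, the CLK genes and SRPK2, against 9.17% of all genes. They lay wholly below for SRSF3 and SRSF6, against 9.13%. Because the genes were listed with results known, these counts describe the list and do not test it. The median change over the 9 genes was 0.10, and over all genes 0.00.

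The SRPK kinases did not pass at any time, and their intervals bound the change. SRPK1 read 2641, 2930 and 3223 in DMSO at 4 h and 2742, 2836 and 3101 in enzastaurin. The groups overlapped, and the log2 change was -0.02 (95% confidence interval -0.17 to 0.13). At 10 and 18 h it was -0.05 and -0.01, and the 3 intervals together span -0.20 to 0.14. Its second probe set changed by -0.08, 0.08 and -0.08. SRPK2 changed by 0.10, -0.13 and 0.12 at 4, 10 and 18 h, with adjusted p of 0.665, 0.392 and 0.365. The 3 SRPK2 intervals together span -0.30 to 0.29. Its treated arrays ran from 1041.5 to 1143 at 4 h, 1266.5 to 1465 at 10 h and 1406 to 1640 at 18 h. Its DMSO arrays ran from 958 to 1036, 1406 to 1533 and 1342 to 1389, so the groups were apart at 4 and 18 h. Its 4 dimmer probe sets that passed the filter changed by -0.33 to 0.51 and none was called. The sixth, 217517_x_at, lay below the filter with group means between 36.5 and 76.6.

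None of the SR protein genes was called on its main probe set at 4 h. SRSF3, the smallest classical SR protein, read 14561, 14410 and 16569 in DMSO and 13234, 12862 and 12449 in enzastaurin on its main probe set. All treated arrays were below all controls, with a log2 change of -0.24 (SE 0.07, adjusted p = 0.074). With quantile normalization the adjusted p was 0.0028, and over the alternatives it reached 0.485. A second bright SRSF3 probe set, 202899_s_at, fell from 14248 ± 1020 to 11131 ± 822 (SD, n = 3 each) and was called on its own (log2 -0.36, adjusted p = 0.026). SRSF6 read 7056, 6463 and 6552 in DMSO and 5875.5, 5736 and 5775 in enzastaurin, all lower, with a log2 change of -0.21 (adjusted p = 0.159). SRSF5 overlapped between treatments (-0.10, adjusted p = 0.636), and with array medians subtracted its change was 0.01. Of the 10 SRSF probe sets tested, 9 had a change below 0 at 4 h and 1 was called.

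**Figure D2:**
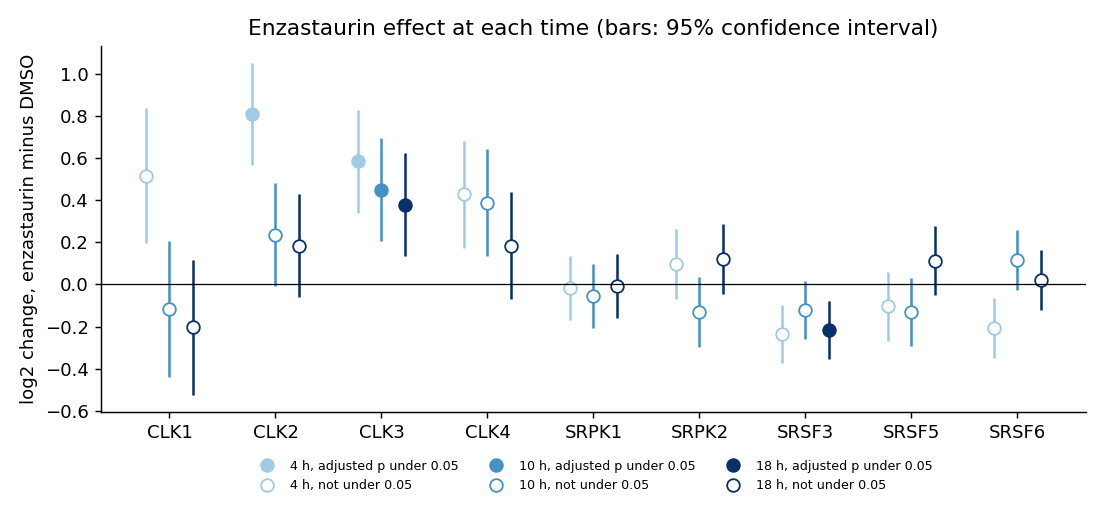
Log2 change of each measured gene, enzastaurin minus DMSO, at 4, 10 and 18 h on the main probe set, with 95% confidence intervals; filled points have an adjusted p under 0.05. CLK2 is highest at 4 h (0.81) and CLK3 is filled at all 3 times (0.59, 0.45 and 0.38), while SRPK1 stays near 0.

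After 10 h CLK3 was the only member called, and it was higher. It read 889, 792 and 622 in DMSO and 1014, 1033 and 1086 in enzastaurin, with the groups apart and a log2 change of 0.45 (SE 0.12, adjusted p = 0.019). Of all genes 3.77% were called higher and 4.69% lower at this time. On main probe sets treated arrays lay wholly above controls for 3 members, CLK2, CLK3 and CLK4, against 11.8% of all genes. They lay wholly below for none, against 15.0%. The CLK3 call was lost without DMSO replicate 3 (adjusted p = 0.128), enzastaurin replicate 2 (0.0511) or enzastaurin replicate 3 (0.067), and with probe sets averaged (0.449), in alternatives from 0.0082 upward. CLK4 read 698, 651 and 733 against 1013, 947 and 794, again apart, at a log2 change of 0.39 and an adjusted p of 0.0526. It passed in 4 of 17 alternatives, among them quantile normalization (0.043) and array weights (0.011), and without enzastaurin replicate 3 (0.028), while averaging its probe sets took it to 0.09 (adjusted p = 0.854).

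CLK2 at 10 h was 990 ± 27.8 in control and 1170 ± 33.2 in treated cells (SD, n = 3 each). Treated arrays lay above controls, but the log2 change of 0.24 was not called (adjusted p = 0.253). CLK1 had no difference beyond its spread, with means of 792 ± 152 and 723 ± 65.8 (SD, n = 3 each) and overlapping arrays. The SRSF genes were not called at 10 h. Their changes on main probe sets were -0.12 for SRSF3, -0.13 for SRSF5 and 0.12 for SRSF6, and the dimmer SRSF6 probe set, 206108_s_at, gave -0.52 (adjusted p = 0.056), opposite in sign to the main one.

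After 18 h CLK3 was higher and SRSF3 lower in treated cells, at a time when 8.10% of all genes were called higher and 7.90% lower. On main probe sets treated arrays lay wholly above controls for 4 members, CLK3, CLK4, SRPK2 and SRSF5, against 15.4% of all genes. They lay wholly below for SRSF3, against 14.4%. CLK3 read 799, 790 and 862 in DMSO and 1025, 980 and 1211 in enzastaurin, apart in every array (log2 0.38, SE 0.12, adjusted p = 0.031). SRSF3 read 14444, 14823 and 13765 in DMSO and 11627, 12875 and 12480 in enzastaurin, also apart (log2 -0.22, SE 0.07, adjusted p = 0.027). The CLK3 call was lost in 8 of 17 alternatives (adjusted p from 0.024 to 0.149) and the SRSF3 call in 7 of 17 (0.021 to 0.612). Subtracting array medians, averaging probe sets and dropping the variance trend ended both. So did leaving out DMSO replicate 1 (adjusted p = 0.087 for CLK3 and 0.0775 for SRSF3), DMSO replicate 2 (0.093 and 0.106) or enzastaurin replicate 1 (0.0506 and 0.112), and CLK3 was also lost without enzastaurin replicate 3 (0.149).

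A dimmer SRSF3 probe set was also called at 18 h. The probe set 208673_s_at fell from 3171 ± 227 to 2428 ± 231 (SD, n = 3 each; log2 -0.38, adjusted p = 0.0043 among probe sets), and all 5 tested SRSF3 probe sets had changes below 0 at each of the 3 times. The 2 dimmest of these, 232392_at and 235324_at, changed by -0.34 to -0.02, none called, and 237485_at was below the filter, with group means between 51.0 and 98.8. SRSF3 has pseudogenes, and signal from near-identical copies cannot be separated on the array.

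The remaining members did not pass at 18 h. CLK1 was 619 ± 30.1 in control and 537 ± 65.4 in treated cells (SD, n = 3 each; log2 -0.20), CLK2 1214 ± 199 and 1385 ± 254 (0.18), and CLK4 592 ± 34.2 and 675 ± 35.4 (0.18). SRSF5 was 6099 ± 119 and 6607 ± 508 (0.11), and SRSF6 3828 ± 52.6 and 3891 ± 332 (0.02). CLK4 and SRSF5 arrays did not overlap between treatments, both with treated arrays above, while CLK1, CLK2 and SRSF6 arrays did.

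**Figure D3:**
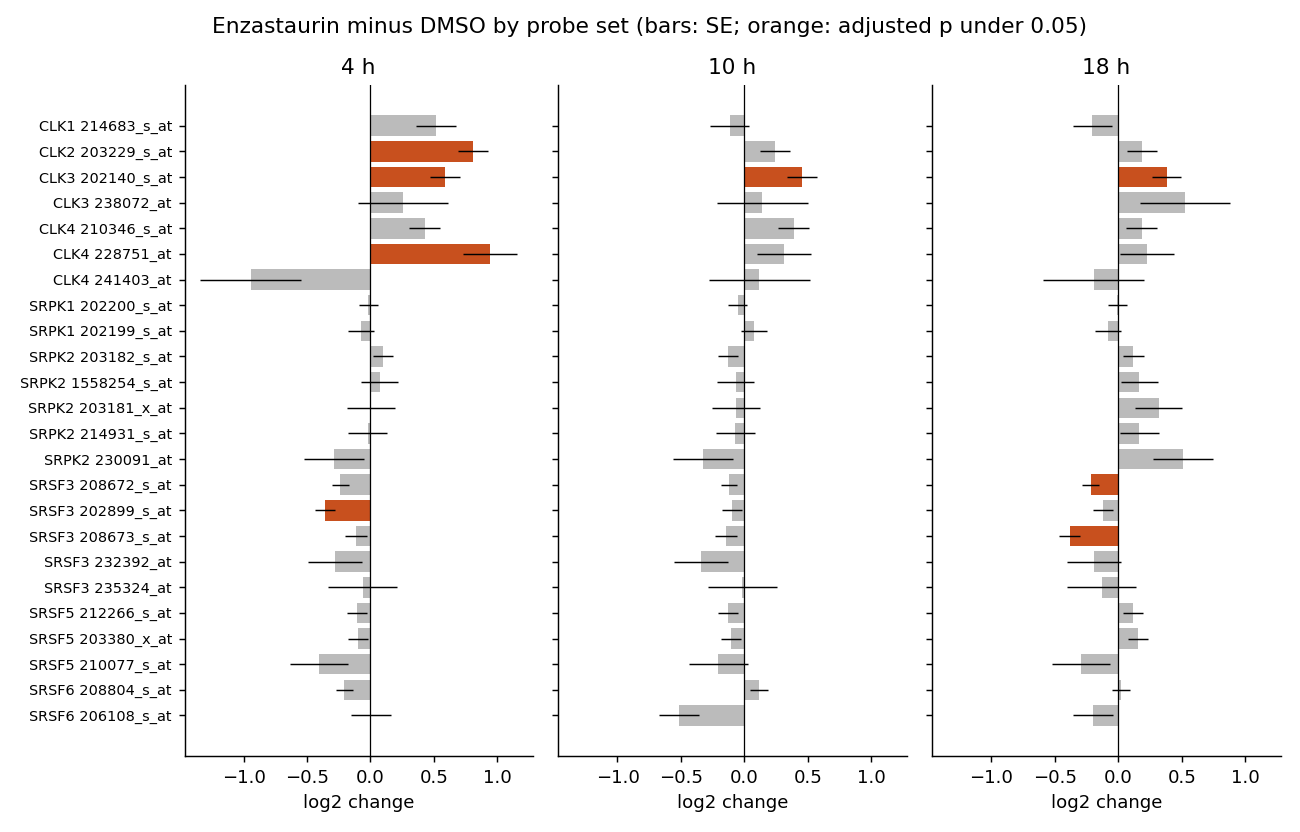
Log2 change, enzastaurin minus DMSO, of each of the 24 tested probe sets at 4, 10 and 18 h, with bars for the SE and orange for an adjusted p under 0.05 among probe sets. At 4 h 6 of 7 CLK probe sets lie above 0 and 3 are orange, while 241403_at of CLK4 lies at -0.94 with a wide SE.

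By probe set, 3 of 7 tested CLK probe sets were called higher at 4 h, 1 at 10 h and 1 at 18 h, and none lower, where 0.356%, 2.94% and 6.20% of all tested probe sets were called higher. Of the 7 SRPK probe sets none was called at any time. Of the 10 SRSF probe sets 1, 0 and 2 were called lower and none higher, against 0.803%, 3.30% and 6.47% of all. The closest tested probe sets to the filter, which lies at an intensity of 102, were CLK3 238072_at and CLK4 241403_at.

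The effect of enzastaurin on CLK2 and CLK1 differed between 4 and 18 h. The difference of effects, 18 h minus 4 h, was -0.63 for CLK2 (SE 0.17, adjusted p = 0.022) and -0.72 for CLK1 (SE 0.22, adjusted p = 0.047), and 3.71% of all genes were called lower in this contrast and 4.07% higher. In treated cells CLK1 went from 1055 ± 255 at 4 h through 723 ± 65.8 to 537 ± 65.4 (SD, n = 3 each), and the 18 h arrays all lay below the 4 h arrays. CLK2 in treated cells went from 1656 ± 103 to 1170 ± 33.2 and then 1385 ± 254, while DMSO cells went from 936 ± 51.8 to 990 ± 27.8 and 1214 ± 199. Both calls sit near the threshold: that of CLK2 held in 15 of 23 alternatives (adjusted p up to 0.065) and that of CLK1 in 7 of 23 (up to 0.143). CLK2 lost it when any 1 of 6 arrays was left out (DMSO 4 h replicate 1, DMSO 18 h replicates 2 and 3, enzastaurin 4 h replicates 1 and 3, enzastaurin 18 h replicate 2), and CLK1 when any 1 of 9 was, that is every array of the 4 groups other than DMSO 4 h replicate 2, enzastaurin 4 h replicate 2 and enzastaurin 18 h replicate 2.

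For CLK3 and CLK4 the same differences were -0.21 and -0.24 (adjusted p = 0.544 and 0.468), so a change of their effect over time was not shown. Between 10 and 4 h, and between 18 and 10 h, limma called no member, with 3 and 2 members at an unadjusted p under 0.05. Of all genes 0.808% and 1.33% were called higher and 0.598% and 0.905% lower. CLK2 came closest, at -0.57 between 10 and 4 h (adjusted p = 0.104), and passed with array weights (0.0495) and in a fit of only the groups compared (0.020), in alternatives up to 0.206.

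In DMSO cells SRSF6 and SRSF5 changed with time. SRSF6 read 7056, 6463 and 6552 at 4 h, 3976, 4136 and 4421 at 10 h, and 3768, 3863 and 3854 at 18 h. It fell by 0.68 from 4 to 10 h and by 0.80 from 4 to 18 h on the log2 scale (SE 0.07, adjusted p = 1.9e-06 and 5.6e-08), and both calls held in all 17 alternatives, at -0.36 and -0.54 with its probe sets averaged. Treated arrays took a similar path, from 5736 to 5875.5 at 4 h, to 4279 to 4863 at 10 h and 3530 to 4183 at 18 h. The dimmer SRSF6 probe set was 911 ± 27.9, 880 ± 25.5 and 755 ± 102 in DMSO (SD, n = 3 each) and was not called.

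SRSF5 dipped at 10 h. Its DMSO arrays read 6720, 6412 and 5478 at 4 h, 4362, 4788 and 4771 at 10 h, and 5961, 6175 and 6160 at 18 h. The fall was 0.41 (log2 change -0.41, adjusted p = 0.0011), the later rise 0.39 (adjusted p = 0.0053), and the 18 h and 4 h levels overlapped (-0.02, adjusted p = 0.907). The rise lost its call with array medians subtracted (0.078) and with probe sets averaged (0.081), in alternatives from 0.0018 upward. In treated cells the means were 5751 ± 268, 4240 ± 306 and 6607 ± 508 (SD, n = 3 each), also lowest at 10 h. A second SRSF5 probe set, 203380_x_at, was also called lower at 10 h than at 4 h in DMSO (-0.35, adjusted p = 0.0046 among probe sets), and 210077_s_at was not (-0.12, adjusted p = 0.785). SRSF3 was not called over time on its main probe set (-0.08 from 4 to 10 h), while 202899_s_at was lower at 10 and 18 h than at 4 h (-0.29 and -0.24, adjusted p = 0.018 and 0.038 among probe sets).

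SRPK2 rose with time in DMSO cells. It read 1031, 1036 and 958 at 4 h, 1533, 1528 and 1406 at 10 h and 1342, 1372 and 1389 at 18 h, a log2 change of 0.56 by 10 h (adjusted p = 8.3e-05) and 0.43 by 18 h (adjusted p = 0.00054). Averaging all its probe sets, 217517_x_at below the filter included, ended both calls (0.34, adjusted p = 0.110, and 0.18, adjusted p = 0.413). On its own the probe set 1558254_s_at rose by 10 h (0.66, adjusted p = 0.0045) but was not called by 18 h (0.32, adjusted p = 0.149). The probe set 214931_s_at rose by 18 h (0.46, adjusted p = 0.045) and was not called by 10 h (0.44, adjusted p = 0.061). Neither 203181_x_at (0.14 by 10 h and -0.08 by 18 h) nor 230091_at (0.23 and -0.31) was called. CLK2 was higher at 18 h than at 4 h in DMSO by 0.36 (adjusted p = 0.035), a call lost in 9 of 17 alternatives, among them those without DMSO 4 h replicate 1 or 2 or DMSO 18 h replicate 2 or 3 (adjusted p up to 0.191). SRPK1 was higher by 0.17 over the same span without passing (adjusted p = 0.0999). From 4 to 10 h 1 member was called higher and 2 lower, where 11.5% and 6.61% of all genes were. From 10 to 18 h the counts were 1 and 0, against 2.02% and 3.30%, and from 4 to 18 h 2 and 1, against 11.3% and 9.00%. The drug contrasts and the time contrasts share DMSO arrays.

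Among 130 other splicing genes in 6 lists, 116 were tested. At 4 h limma called none, with 16 at an unadjusted p under 0.05, a cut at which no share over all genes was computed. The calls were 4 higher and 3 lower at 10 h, and 6 higher and 8 lower at 18 h. Over all genes 0.558% were called higher and 1.25% lower at 4 h. The shares were 3.77% and 4.69% at 10 h, and 8.10% and 7.90% at 18 h. The counts of called genes among the 116 lie below those shares at each time, and are no result about the lists. The median change of the 116 was 0.04, 0.01 and 0.01. Of the other SR proteins 6 were tested, all with a change below 0 at 4 h (median -0.14). The only one called was SRSF8, a gene close in sequence to SRSF2, lower at 10 and 18 h (-0.42 and -0.50, adjusted p = 0.0029 and 0.00026) and at -0.32 at 4 h (adjusted p = 0.057). Near-identical copies make its value uncertain.

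Of 24 SR-related proteins tested, 1 was higher at 10 h, and 1 was higher and 2 lower at 18 h, counts near the shares over all genes. TRA2A, a splicing activator with arginine-serine domains, fell (-0.35, adjusted p = 0.0035), as did BCLAF1 (-0.20, adjusted p = 0.024), and SREK1, a splicing regulator, rose (0.30, adjusted p = 0.026). Of 11 related kinases and SR import genes tested, 1 was higher and 1 lower at 18 h, near the shares of 8.10% and 7.90% over all genes. DYRK1A, a nuclear kinase of the same kinase group as CLK, rose (0.21, adjusted p = 0.048). HIPK2, a homeodomain-interacting kinase, fell (-0.33, adjusted p = 0.015). None of the 11 was called at 4 or 10 h, with 3 and 0 at an unadjusted p under 0.05 by limma.

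The hnRNP proteins often oppose SR proteins at splice sites. Of 26 tested, 1 was higher and 2 lower at 10 h, and 1 higher and 4 lower at 18 h. The shares over all genes were 3.77% and 4.69% at 10 h, and 8.10% and 7.90% at 18 h. These counts describe the list and do not test it. HNRNPD (-0.43, adjusted p = 0.00071), PTBP3 (-0.27, adjusted p = 0.0068) and HNRNPH1 (-0.27, adjusted p = 0.0089) were the clearest falls at 18 h. Of 38 core spliceosome genes 2 were higher at 10 h, where 3.77% of all genes were, and 2 at 18 h, where 8.10% were, none lower. SF3B2 and SF3A1, both components of the U2 particle, rose at 18 h (0.26 and 0.21, adjusted p = 0.040 and 0.037). Of 11 nonsense-mediated decay genes only SMG8, a regulator of the decay kinase SMG1, was called, higher at 18 h (0.22, adjusted p = 0.030). At that time 8.10% of all genes were called higher.

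The other called genes of these lists were singled out after their values were seen. At 10 h ARGLU1, an SR-related protein, rose by 0.63 (SE 0.16, adjusted p = 0.018), SF1, the branch point binding protein, by 0.52 (SE 0.15, adjusted p = 0.030) and HNRNPA1, a widely expressed splicing repressor, by 0.47 (SE 0.12, adjusted p = 0.017). SF3B2 was also higher at 10 h (0.28, adjusted p = 0.042). HNRNPDL and HNRNPH3 were lower at 10 h (-0.38 and -0.27, adjusted p = 0.0047 and 0.030). At 18 h RALY was higher (0.36, adjusted p = 0.014) and HNRNPUL2 lower (-0.25, adjusted p = 0.014).

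**Figure D4:**
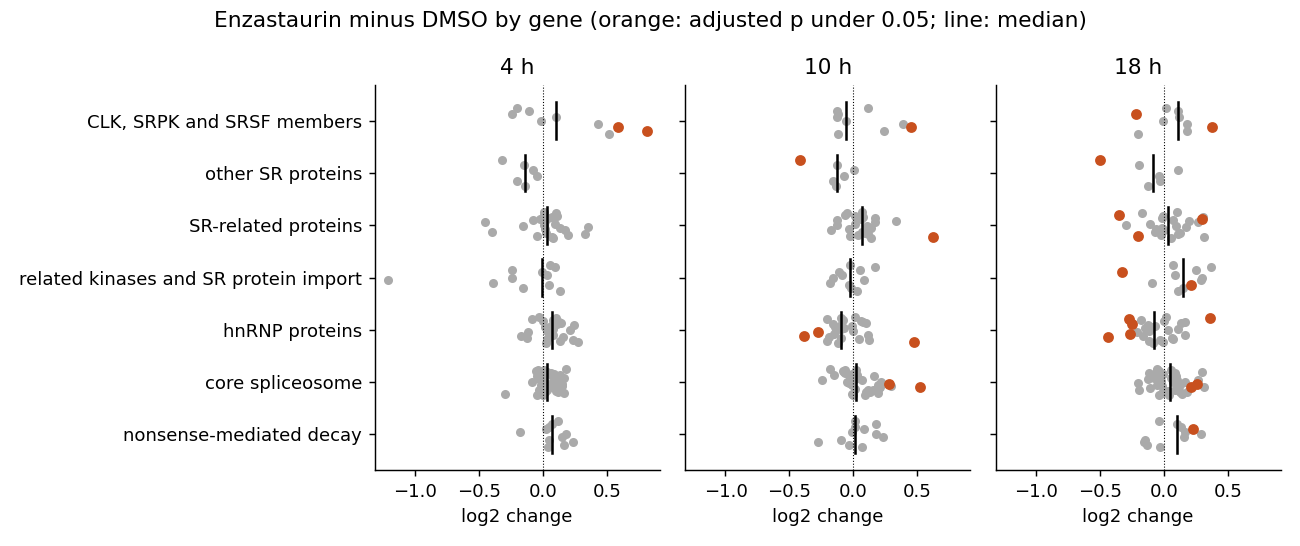
Log2 change, enzastaurin minus DMSO, at 4, 10 and 18 h for each tested gene of the CLK, SRPK and SRSF members and of 6 lists of other splicing genes; orange marks an adjusted p under 0.05 and black lines the medians. At 4 h the orange points are CLK2 (0.81) and CLK3 (0.59), and none of the 116 other genes is orange. Of all genes tested, 0.558% were called higher and 1.25% lower at 4 h.

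SRSF6 and CLK1 had the largest spread of their 6 group means, an SD of 0.33 and 0.32 on the log2 scale. Over the 18 arrays the tested genes whose log2 values ran most like SRSF6 were IMPDH2, an enzyme of guanine nucleotide synthesis (Pearson r 0.965), ADARB1, an RNA-editing deaminase (0.959), LAYN, a hyaluronan receptor (0.944), GABPB1, a transcription factor subunit (0.942), and FEZ2 (0.937). Those most like CLK1 were FANCI, a DNA repair gene (0.888), GCSH, of the glycine cleavage system (0.864), MAP3K20, a stress kinase (0.858), SNRPA1, a U2 particle protein (0.854), and PRDX2, a peroxiredoxin (0.851). All points of a correlation share the same 18 arrays.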

How the data were processed

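Total RNA of U251 cells was labelled and hybridized to Affymetrix expression arrays, 18 in all, 3 for each of 6 groups. The authors deposited 1 linear signal intensity for each of 54613 probe sets, made with GCOS 1.2 per the submitters' processing notes. The 2% trimmed mean lies between 498.2 and 498.5 on every array, so arrays share a common scale, and no detection calls were used. Values were analysed as log2(intensity + 16) without further normalization, so fold changes of dim probe sets are understated.

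Symbols of the platform annotation were updated through RefSeq gene identifiers (GRCh38.p14). A single symbol was found for 41091 probe sets, which were used, several for 1801 and none for 11721. The brightest probe set stood for each of 19775 genes, and those above the median level of all probe sets (an intensity of 102) were tested, 12376 genes. A limma 3.58.1 model in R 4.3.3 with 1 mean per group and a variance trend gave all tests, adjusted by Benjamini-Hochberg over all genes, called under 0.05. Probe sets were also fitted one by one (22781). Shares over all genes are given for calls and for arrays that do not overlap. None was computed for an unadjusted p under 0.05. Samples were grouped by their titles. The code was tested on simulated data. The genes and lists were chosen with earlier results of these data known. All 10 genes are named, with up to 3 called genes of smallest adjusted p at 18 h per list, and the 5 genes most correlated with the 2 members of largest spread. Alternatives were an offset of 1 or 64, no filter, a filter that keeps the top 25% of probe sets, quantile normalization, array medians subtracted, probe sets averaged, array weights, a fit of only the groups compared, a fit without the trend, the replicate number as a block, and each array left out. Averages took in every probe set of a gene with 1 symbol, also those below the filter. The CLK sequences came from RefSeq. Figures used Python 3.11.15 and matplotlib 3.10.9.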

Additional observations from a re-analysis of the deposited data

Results flagged for a closer look

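The enzastaurin effect differed between 18 h and 4 h for 2 of the genes by the test of the difference itself. For CLK2 it changed by -0.63 on the log2 scale (SE 0.17, adjusted p = 0.022), from 0.81 at 4 h to 0.18 at 18 h. For CLK1 it changed by -0.72 (SE 0.22, adjusted p = 0.047), from 0.52 to -0.20, neither of which was called on its own. The CLK2 call was lost in 8 of 23 alternatives and the CLK1 call in 16 of 23, the replicate block among them (adjusted p = 0.0546). Groups of 3 arrays were not tested for single outlying arrays.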

How the results depend on the processing

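Counts of called members are small, so a single gene moves them. At 4 h the count of 2 fell to 1 with probe sets averaged, was 3 with quantile normalization, where SRSF3 was called lower, and ran from 1 to 3 with single arrays left out. At 10 h the count of 1 became 2 with only the brightest 25% of probe sets, with quantile normalization and with array weights, 0 with probe sets averaged, and 0 to 1 with single arrays left out. At 18 h the count of 2 became 0 with array medians subtracted, with probe sets averaged and without a trend, 1 with array weights and with only the groups compared, and 0 to 2 with single arrays left out. For the difference of effects between 10 and 4 h the count of 0 became 1 with array weights and with only the groups compared. For that between 18 and 4 h the count of 2 became 1 without a level filter, with array medians subtracted, with probe sets averaged, with array weights and with the replicate block, 0 without a trend and with only the groups compared, and 0 to 2 with single arrays left out. In DMSO from 10 to 18 h the count of 1 became 0 with array medians subtracted and with probe sets averaged. In DMSO from 4 to 18 h the count was 2 to 4 with single arrays left out. The cause was not tested.

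Subtracting array medians moved the median 4 h change of all genes to 0.12, so falls at 4 h are smaller and rises larger on that scale. With group means removed, the correlation of same-numbered arrays ran from -0.04 to 0.07, so numbers were not used as pairs; with replicate number as a block, CLK1 lost its call for the difference between 18 and 4 h (adjusted p = 0.0546, within 0.018 to 0.143 over its alternatives). Over all gene-level values under alternatives, 59 lost a call, 12 gained one and none reversed a called direction. Probe sets near the filter have the least signal over background, so the dim CLK3, CLK4 and SRSF3 probe sets limit what can be said of them.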

Other observations

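SRSF6 and SRPK2 ran opposite to each other over the study, with a Pearson r of -0.90 over the 18 arrays on the log2 scale, but after group means were removed r was -0.17. CLK2 and CLK3 ran together with an r of 0.76, and 0.45 after group means were removed. These are descriptions over shared arrays. Within the CLK family the other pairs had an r from 0.20 (CLK1 and CLK2) to 0.41 (CLK3 and CLK4). After group means were removed theirs ran from -0.37 (CLK3 and CLK4) to -0.04 (CLK1 and CLK2). Among all member pairs r then reached -0.62 (SRPK2 and SRSF3) and 0.48 (CLK2 and SRSF6).

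Of the 6 tested glial and glioma markers, 1 was called at 4 h, none at 10 h (2 at an unadjusted p under 0.05, limma) and 3 at 18 h. Over all genes 0.558% were called higher and 1.25% lower at 4 h. The shares were 3.77% and 4.69% at 10 h, and 8.10% and 7.90% at 18 h. SOX2, a transcription factor of neural stem cells, was lower at 4 h (-0.54, adjusted p = 0.00044) and higher at 18 h (0.45, adjusted p = 0.00029). NES, an intermediate filament gene of neural precursors, was lower at 18 h (-0.67, adjusted p = 3.0e-06), and TNC, an extracellular matrix gene, was higher (0.33, adjusted p = 0.0094), also at 18 h. Their part in the results on the splicing genes was not tested.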
